A study of Mus musculus with 6 samples.

Results

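The TRIM family was followed in mouse embryonic stem cells whose protein synthesis had been blocked with cycloheximide. Members were taken as every gene in the count files whose symbol is Trim followed by a number and at most 1 letter, which gave 51 of 17485 genes. Trim25 was chosen by its measured fall at 3 h, so its values are given as a description without a test, at 6 h as well because both comparisons use the same control libraries. The other members entered by symbol alone.

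The cells were E14 embryonic stem cells of 129/Ola background, grown on gelatin in serum with leukaemia inhibitory factor. Cycloheximide, a small molecule that stalls ribosomes during elongation, was added at 250 µg/mL in 0.007% ethanol 24 h after seeding and left for 3 h or 6 h. Control cells received ethanol without the drug for 9 h, so the time in ethanol differed between the groups. Polyadenylated RNA was sequenced in bulk from 2 libraries per group, 6 in all. The labels do not say whether the 2 libraries of a group came from separate cultures, so p-values measure only the spread between these libraries.

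Library totals ran from 9385447 to 27351079 counts and were highest at 6 h. Mitochondrial genes took 24.7 to 24.9% of the counts in control, 18.9 to 19.6% at 3 h and 16.6 to 17.4% at 6 h, and the part of depth and of this share in the results was not tested except where a value is given. With all libraries thinned to the smallest total, the same 14 TRIM members were called at 6 h as with full depth, Trim25 among them. The 9 stem cell markers examined, Pou5f1, Sox2 and Nanog among them, summed to 6780 to 6950 CPM in control (counts scaled to 1000000 per library, with library sizes corrected by trimmed means, TMM), 7890 to 8150 at 3 h and 5480 to 5660 at 6 h. The 5 fibroblast markers in the files summed to 3.07 to 10.1 CPM over the 6 libraries, and the 2 macrophage markers to 9.74 to 14.3. The 4 endoderm markers summed to 3.93 to 4.89 CPM in control, 13.1 to 13.6 at 3 h and 7.72 to 11.5 at 6 h, and the 3 neural markers to 70.5 to 84.6, 98.2 to 126 and 68.6 to 81.0. The 3 mesoderm markers summed to 5.25 to 11.7 CPM and the 3 trophoblast markers in the files to 0.367 to 1.04 over all libraries, and the part of these markers in the results was not tested.

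TRIM proteins carry a RING finger, one or more B-boxes and a coiled coil, followed in most members by a domain that selects the substrate. The RING finger makes many of them E3 ubiquitin ligases, which pass ubiquitin from an E2 enzyme to a target protein. In embryonic stem cells the family is best known for TRIM28, the corepressor that silences endogenous retroviruses, and for TRIM71 (LIN41), a repressor of mRNAs that is itself a target of let-7 microRNAs, while many SPRY-domain members act in antiviral defence.

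Trim25 encodes an E3 ligase that binds RNA and is known for ubiquitinating the RNA sensor RIG-I. It lies on chromosome 11 (mm10, chr11:88999376-89020293, plus strand, GENCODE M21). Its level was 206.7 and 247.3 CPM in the control libraries, 41.2 and 34.8 after 3 h of cycloheximide, and 46.2 and 49.3 after 6 h. All 4 treated libraries lay far below both controls, and the 6 h libraries lay slightly above those at 3 h. The raw counts behind these levels were 2790 and 2024 in control against 638 and 602 at 3 h and 1401 and 1286 at 6 h. The fitted log2 difference from control was -2.58 ± 0.15 (SE) at 3 h and -2.25 ± 0.15 at 6 h, or levels 5.97-fold and 4.75-fold lower. In bulk RNA, fewer cells with the transcript and less transcript per cell cannot be told apart. Ordered from the lowest difference among 12755 tested genes, Trim25 took place 40 at 3 h and place 66 at 6 h. Over 17 other ways of processing the counts its difference stayed between -2.71 and -2.35 at 3 h and between -2.37 and -1.89 at 6 h.

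The sequence around the start of Trim25 is shown because it is 1 of 3 members with an E-box, the letters CACGTG bound by bHLH factors, in the RefSeq promoter window of 250 bases before to 50 bases after the start (GRCm38.p6). The stretch runs from 70 bases before to 30 bases after the start at chr11:88999333-88999432 on the plus strand, 5′ to 3′, with the E-box in capitals 48 to 43 bases before the start.
Trim25: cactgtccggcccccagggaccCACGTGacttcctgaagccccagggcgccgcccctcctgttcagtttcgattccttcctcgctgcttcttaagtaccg
The same letters were found in 7.15% of all 32851 windows in the table, and in 1 window each of Trim39 and Trim46. Those 2 members also have windows without the letters. Trim39 was among the members called higher at 6 h and Trim46 was not called. The part of these letters in the results was not tested.

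Of the 51 members, 35 had enough counts to be tested and 16 did not. A gene was tested when at least 2 libraries reached 0.621 CPM, the level of 10 counts in the median library, and it was called when edgeR's quasi-likelihood test gave a Benjamini-Hochberg adjusted p under 0.05 over all 12755 genes. At 3 h, 2 of the 34 tested members besides Trim25 were called, both higher, or 5.88%, against 4.9% of all tested genes (3.6% called higher and 1.3% lower). At 6 h, 13 of the 34 were called, 10 higher and 3 lower, or 38.2%, against 29.0% of all genes (14.8% higher and 14.3% lower). Both shares were near those of all genes, and the 3 h share rests on 2 genes.

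Some of the members called higher had been tested only because they were high after the drug. Trim12c, Trim30d, Trim34a, Trim62, Trim68 and Trim72 did not reach the threshold in both control libraries, and 3 of these 6 were called higher at 6 h. Of the 28 members besides Trim25 that reached it in every group, 10 were called at 6 h, 7 higher and 3 lower, and their log2 differences ran from -0.78 to 1.18. No other member came near Trim25: the next lowest at 3 h was Trim62, at -1.49 ± 1.05, which was not called (adjusted p = 0.415) and whose 3 h libraries held 6 and 3 counts.

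**Figure D1:**
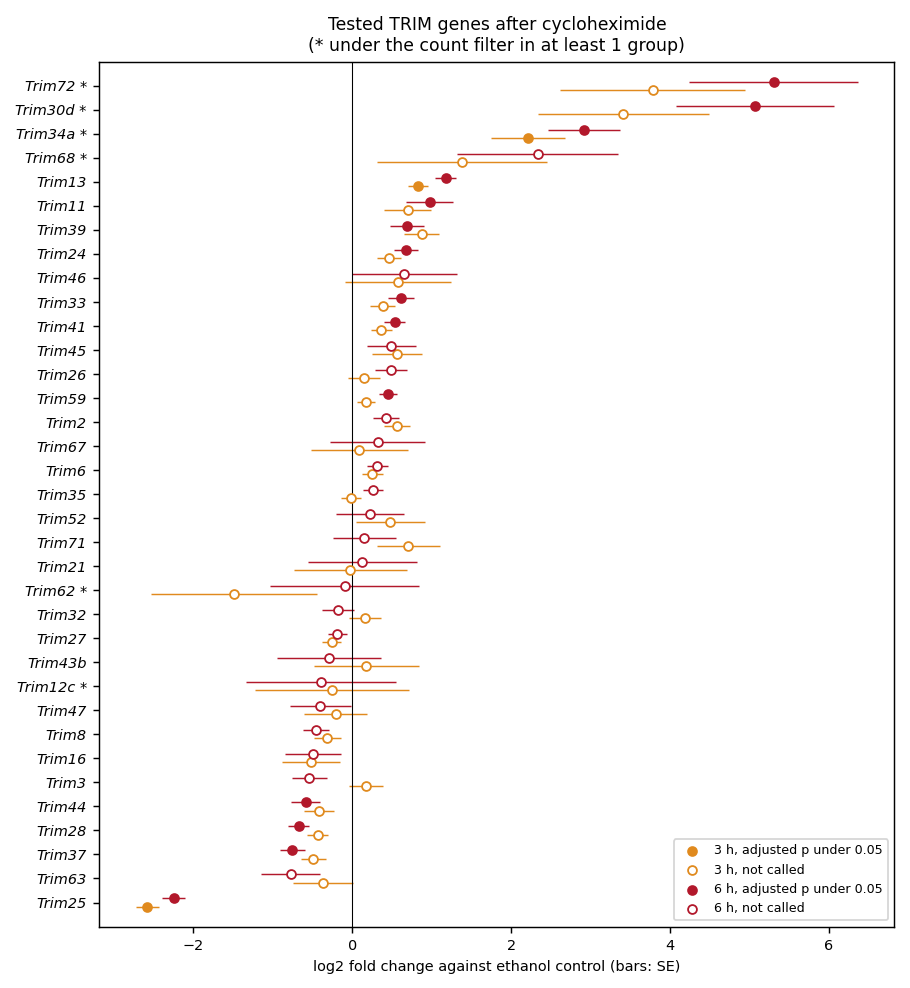
Log2 fold change of each of the 35 tested TRIM genes against ethanol control (horizontal axis, bars are standard errors), at 3 h in orange and 6 h in red, with filled points for an adjusted p under 0.05 by edgeR's quasi-likelihood test. Trim25, chosen by its fall, stands alone at the bottom near -2.58 and -2.25, and its filled points are a description without a test. The genes at the top with wide bars are those with few counts in control.

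The size of the family's differences was modest. The median log2 difference over the 35 tested members was 0.17 at 3 h and 0.26 at 6 h, beside 0.02 and 0.04 over all tested genes. These 35 include Trim25, chosen by its fall, and members that missed the filter level in control. Under 4 scalings the median ran from 0.15 to 0.40 and from 0.24 to 0.62. The all-gene median was positive under each as well, reaching 0.25 and 0.40 with library size alone. The RING finger genes named Rnf, which are ubiquitin ligases of other families, gave medians of 0.20 and 0.38 over 65 tested genes. Of these, 5 were called at 3 h (2 higher and 3 lower), or 7.69%, against 4.9% of all tested genes. At 6 h 24 were called (14 higher and 10 lower), or 36.9%, against 29.0%.

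The split between higher and lower depended on the scaling. With library size alone the all-gene median shifted upwards, from 0.02 to 0.25 at 3 h and from 0.04 to 0.40 at 6 h, and 88.2% of the 6 h calls were higher in place of 50.8%. At 3 h, 95.9% were higher in place of 73.4%, and at 6 h against 3 h, 56.5% in place of 27.8%. With that scaling, and leaving out Trim25, 7 TRIM members were called higher at 3 h and 14 at 6 h, and none was called lower. Over all 12755 tested genes, 1316 were higher and 57 lower at 3 h, and 3679 higher and 494 lower at 6 h. Besides Trim25, a test against a change of 1.5-fold kept 4 members at 6 h, namely Trim13, Trim34a, Trim30d and Trim72, and none at 3 h. Of these only Trim13 reached the filter level in control. The same test kept 773 of the 12755 tested genes at 6 h and 108 at 3 h.

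**Figure D2:**
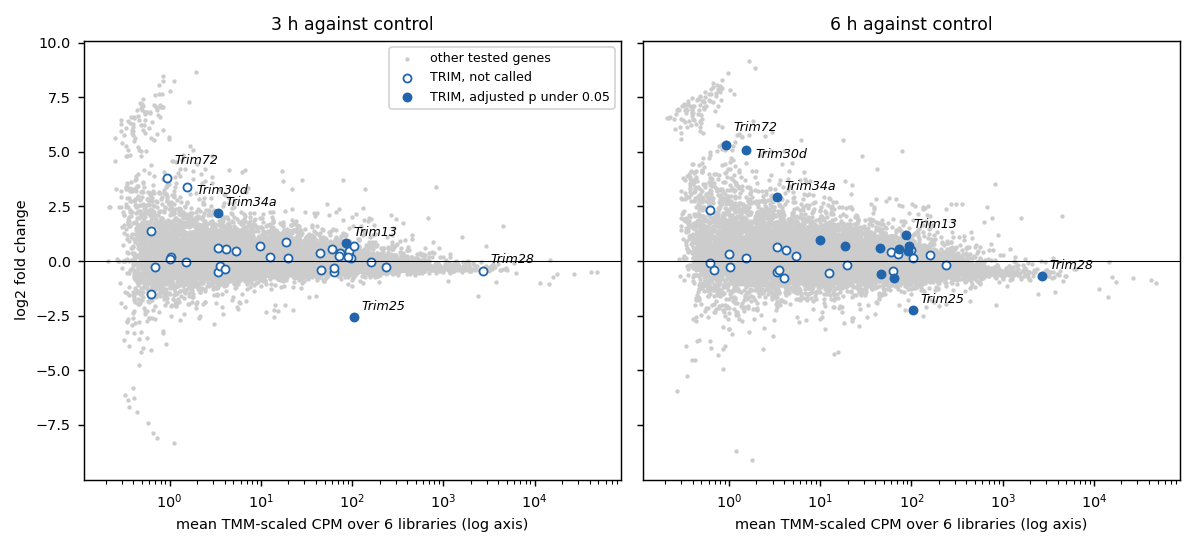
Log2 fold change against control (vertical axis) and mean TMM-scaled CPM over the 6 libraries (horizontal log axis) for all 12755 tested genes in grey and the 35 tested TRIM genes in blue, filled where the adjusted p was under 0.05, at 3 h on the left and 6 h on the right. Trim25, chosen by its fall, lies far below the other TRIM genes of like level, while Trim72, Trim30d and Trim34a lie at the low-count end.

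The 6 h libraries were also compared with those at 3 h. No TRIM member was called by edgeR's quasi-likelihood test, limma-voom or DESeq2, against 1.64% of all tested genes by edgeR. Leaving out Trim25, the members at an unadjusted p under 0.05 were Trim13 (0.35 ± 0.13), Trim59 (0.28 ± 0.12), Trim30d (1.66 ± 0.66) and Trim3 (-0.71 ± 0.21). Only Trim3 of these was lower at 6 h. Their adjusted p-values were all above 0.05 (Trim3 had 0.134), and they were picked after their values were seen. Trim25 differed by 0.33 ± 0.14, given without a test because the gene was chosen by its low level at 3 h.

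The largest group, with 25 members of which 18 were tested, ends in a PRY-SPRY domain and includes Trim25. Besides Trim25, Trim11, Trim39 and Trim41 were called at 6 h and reached the filter level in control. Trim30d, Trim34a and Trim72 were also called, but were tested only through the treated libraries and so could only be called higher. Over all tested genes 29.0% were called at 6 h. Trim34a and Trim30d lie in the Trim cluster of chromosome 7, where many rodent members answer to interferon in other cells. Trim34a stood at 0.963 and 0.489 CPM in control against 4.13 and 3.00 at 3 h and 6.73 and 4.91 at 6 h. Every treated library was above both controls, and the groups did not overlap, a separation favoured by its being tested only through the treated libraries. Its log2 difference was 2.21 ± 0.47 at 3 h (adjusted p = 0.0358) and 2.92 ± 0.45 at 6 h (adjusted p = 0.00328). The 6 h call held in all 17 alternatives, whereas the 3 h call was lost in 8, among them limma-voom (adjusted p = 0.117) and the removal of any library but control library 1 (0.0768 to 0.160). Trim30d had 0 and 2 counts in control against 24 and 11 at 3 h and 121 and 75 at 6 h. Those counts were few in control and higher in every treated library, which the same way of entering the test favoured. Scaled for depth, the summed 6 h counts were 37.7 times those of control, with an exact 95% interval of 10.3 to 313 that covers counting error only. The 3 h ratio was 11.6 (2.97 to 99.3). The 6 h difference was called (adjusted p = 0.0074) and that at 3 h was not (adjusted p = 0.100); without 6 h library 1 the former was 0.0521.

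The counts of these genes are uncertain. Trim30a, Trim30b, Trim30d, Trim12c and Trim34a belong to a cluster of related genes whose sequences were not compared here, and how reads that match more than 1 gene were assigned is not given in the sources used here. Trim30a had 0 to 7 counts per library and Trim30b 0 to 2, so neither was tested. Trim12c, at chr7:104338754-104353362, had 19 and 1 counts in control against 6 and 17 at 3 h and 18 and 17 at 6 h, and did not separate the groups. The annotation also places 23.5% of the exonic bases of Trim34a under an antisense gene, Gm47248, and without strand information reads of the pair cannot be told apart.

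Promoters of Trim30d, Trim34a and Trim12c of the cluster, and of Trim21 elsewhere on chromosome 7, are shown for the stretch GAAANNGAAA. Interferon-inducible genes often carry this stretch, the core of the interferon-stimulated response element. It was searched on both strands of the RefSeq windows, of which 53 belong to 41 members, together with 6 other motifs. Those were the E-box above, TGACG (in 20.8% of all windows and 12 of the 53), TATAAA (13.6% and 8), GGGCGG (35.7% and 26), CCAAT (37.4% and 24) and the NRF1 site GCGCATGCGC (0.971% and 3). GAAANNGAAA was found in 8 of the 53 windows and in 3.44% of all 32851. The members were Trim12c, Trim2, Trim21, Trim26, Trim30a, Trim30d and Trim34a. Trim30a, a cluster member with the letters in each of its windows, is not printed. The stretches below run from 70 bases before to 30 bases after the start, 5′ to 3′ on the gene's strand, with the match in capitals. Trim30d is at chr7:104507820-104507919 (minus strand), Trim34a at chr7:104244387-104244486 (plus), Trim12c at chr7:104353320-104353419 (minus) and Trim21 at chr7:102565453-102565552 (minus).
Trim30d: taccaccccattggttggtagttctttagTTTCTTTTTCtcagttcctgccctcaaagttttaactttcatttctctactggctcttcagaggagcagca
Trim34a: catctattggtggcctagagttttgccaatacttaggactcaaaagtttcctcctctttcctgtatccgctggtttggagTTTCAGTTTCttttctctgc
Trim12c: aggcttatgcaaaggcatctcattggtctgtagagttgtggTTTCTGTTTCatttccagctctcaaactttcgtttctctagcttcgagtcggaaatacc
Trim21: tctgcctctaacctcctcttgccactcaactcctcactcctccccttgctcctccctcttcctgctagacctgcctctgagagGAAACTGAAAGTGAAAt
Trim30d and Trim34a carry the letters on the opposite strand, as does Trim12c, and Trim21 holds 2 matches that overlap. Of the 7 members with a match, Trim30d and Trim34a were called higher, Trim2, Trim12c, Trim21 and Trim26 were tested and not called, and Trim30a was not tested. A match is a description of these letters and not a binding site.

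The RIG-I pathway, in which TRIM25 acts, was read from a list of sensors, adaptors and regulators that also holds genes of DNA sensing such as Mb21d1. Of 19 tested genes, only Mb21d1 rose at 3 h (5.26%, against 4.9% of all tested genes). At 6 h 2 rose, Mb21d1 among them, and 1 fell (15.8%, against 29.0%). The median log2 difference was 0.08 and 0.11, or 0.31 and 0.46 with library size alone. Mb21d1, which encodes the DNA sensor cGAS, stood at 11.5 and 6.48 CPM in control against 26.3 and 23.6 at 3 h and 40.7 and 34.8 at 6 h. Each treated group lay above the one before it. The differences from control were 1.44 ± 0.25 (adjusted p = 0.0188) and 2.04 ± 0.25 (adjusted p = 0.00119), and the 3 h call was lost without either 3 h library. Riok3, a kinase that regulates RIG-I-like sensors, rose by 0.74 ± 0.14 at 6 h (adjusted p = 0.0059). Ube2l6, the E2 enzyme of the ubiquitin-like modifier ISG15, was lower by -0.57 ± 0.15 at 6 h (adjusted p = 0.0233), a call lost without control library 2, without either 6 h library and with library size alone (-0.22). RIG-I itself, listed as Ddx58, was at 72.5 and 86.5 CPM in control against 70.8 and 65.5 at 3 h and 79.3 and 66.3 at 6 h, and was not called. Isg15 and Irf7, which interferon induces in other cells, held at most 3 counts in any library.

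Trim72 (MG53), known for membrane repair in muscle, had 1 and 0 counts in control against 15 and 8 at 3 h and 79 and 39 at 6 h. The treated groups lay above control without overlap, a separation favoured by its being tested only through the treated libraries. The depth-scaled ratio of summed counts was 45.4 at 6 h with an interval of 7.99 to 1810, and 15.2 (2.47 to 626) at 3 h. The adjusted p was 0.0081 at 6 h and 0.0948 at 3 h, and without 6 h library 1 the former was 0.0581. The annotation places 27.6% of its exonic bases opposite Gm15533 on the other strand.

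The other risers with a PRY-SPRY domain changed less. Trim11, a ligase linked to the clearance of misfolded proteins, was at 7.26 and 5.50 CPM in control against 10.1 and 10.8 at 3 h and 9.47 and 15.9 at 6 h, a difference of 0.97 ± 0.29 at 6 h (adjusted p = 0.0376). Trim39, a regulator of the anaphase-promoting complex, was at 10.5 and 15.3 CPM in control against 21.2 and 25.5 at 3 h and 19.5 and 21.5 at 6 h, a difference of 0.69 ± 0.21 at 6 h (adjusted p = 0.0417) and 0.87 ± 0.22 at 3 h (0.0563, not called). Trim41, a ligase for protein kinase C, was at 62.2 and 54.9 CPM in control against 73.8 and 77.0 at 3 h and 80.3 and 89.4 at 6 h, a difference of 0.53 ± 0.13 at 6 h (adjusted p = 0.0178). All 3 had both treated groups above control. None of the 3 calls held without 6 h library 2 (adjusted p = 0.275, 0.189 and 0.120). Trim11 was also lost without control library 2 or either 3 h library, with limma-voom and with the replicate number as a block (0.0562), Trim39 without control library 1, either 3 h library or 6 h library 1, and Trim41 without control library 2 or 6 h library 1.

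Several well known members of this group were not called. Trim27, which acts with MAGE proteins in endosomal recycling, was at 271.9 and 254.8 CPM in control against 206.1 and 233.6 at 3 h and 243.5 and 219.1 at 6 h. Its difference at 6 h was -0.19 ± 0.12 (adjusted p = 0.257) and turned to 0.17 with library size alone. Trim26 was at 75.5 and 93.0 CPM in control against 76.7 and 109.3 at 3 h and 133.9 and 102.0 at 6 h, where both libraries exceeded control (0.49 ± 0.20, adjusted p = 0.107). It was called higher at 6 h with library size alone (0.84) and without a filter on low counts. Trim21, the cytosolic antibody receptor, was at 0.741 and 2.32 CPM in control against 1.03 and 1.85 at 3 h and 1.16 and 2.07 at 6 h, so all groups overlapped. Its sign changed with the setting at every comparison.

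**Figure D3:**
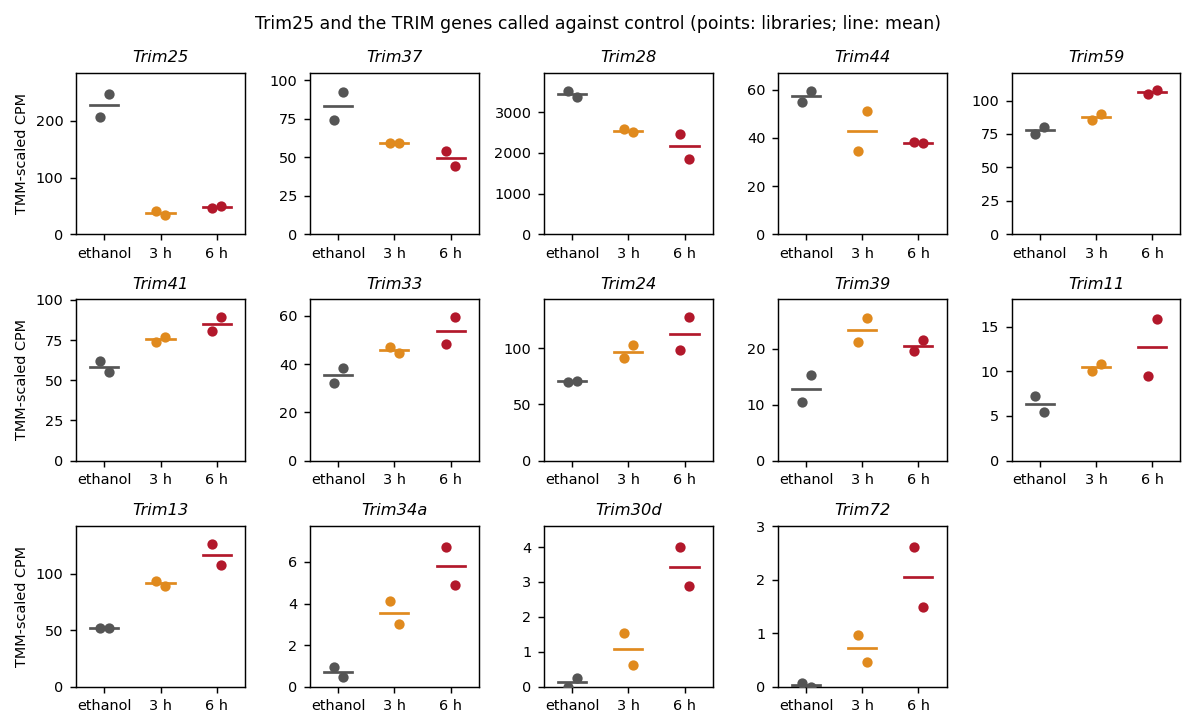
TMM-scaled CPM (vertical axes, each from 0) of Trim25, chosen by its fall and shown as a description, and of 13 TRIM genes called against control. Each panel has 1 point per library for the ethanol, 3 h and 6 h groups (horizontal axes) and a line at the mean of each pair. The Trim25 panel falls from 206.7 and 247.3 to values between 34.8 and 49.3, and the control points of Trim34a, Trim30d and Trim72 all lie under 1 CPM.

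The TIF1 members end in a PHD finger and a bromodomain and act on chromatin. They did not move together: Trim28 fell while Trim24 and Trim33 rose at 6 h. Trim28 (KAP1), the corepressor recruited by KRAB zinc finger proteins, was at 3514 and 3385 CPM in control against 2596 and 2505 at 3 h and 2463 and 1860 at 6 h. Both treated groups lay below both controls. The difference was -0.44 ± 0.13 at 3 h (adjusted p = 0.0857, not called) and -0.67 ± 0.13 at 6 h (adjusted p = 0.00686), and with library size alone it was -0.32 at 6 h and not called (0.0780). Trim24, a nuclear receptor cofactor and p53 ligase, was at 70.3 and 71.1 CPM in control against 91.1 and 103 at 3 h and 98.4 and 127.5 at 6 h. Trim33, a partner of SMAD proteins, was at 32.3 and 38.2 CPM in control against 47.0 and 44.7 at 3 h and 48.4 and 59.3 at 6 h. Neither gene's treated libraries overlapped with control. The 6 h differences were 0.68 ± 0.15 for Trim24 (adjusted p = 0.0125) and 0.61 ± 0.16 for Trim33 (adjusted p = 0.0216). Both calls were lost without 6 h library 2 (0.0974 and 0.155), and that of Trim33 also without control library 1 (0.0779). Trim66, whose expression is best known in germ cells, had 2 counts in all 6 libraries together.

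Partners of TRIM28 were read from a list of 20 tested genes. At 3 h, 1 was called higher and 2 lower (15.0%, against 4.9% of all tested genes), and at 6 h 3 were higher and 5 lower (40.0%, against 29.0%). The median difference was -0.11 at 3 h and 0.04 at 6 h, or 0.12 and 0.39 with library size alone. Cbx5 (HP1α), which binds TRIM28 and methylated histone H3, was at 182.4 and 176.7 CPM in control against 96.1 and 97.4 at 3 h and 88.1 and 83.5 at 6 h. It fell by 0.89 ± 0.11 on the log2 scale at 3 h (adjusted p = 0.00456) and by 1.07 ± 0.11 at 6 h (adjusted p = 0.000581). Sumo2, a ubiquitin-like modifier, differed by -0.72 ± 0.12 at 6 h (adjusted p = 0.00357). Cbx3 (HP1γ) differed by -0.55 ± 0.11 (adjusted p = 0.00721), lost with library size alone (-0.19) and without 6 h library 2. Zfp819, a KRAB zinc finger gene, rose from 3.56 and 3.91 CPM to 11.4 and 11.2 at 3 h and 10.4 and 9.08 at 6 h (1.60 ± 0.24 and 1.39 ± 0.23, adjusted p = 0.00968 and 0.00428). Atf7ip, the partner of the histone methyltransferase SETDB1, rose by 0.82 ± 0.22 at 6 h (adjusted p = 0.0242), lost without control library 1 or either 6 h library. The 3 h calls of Cbx5 and Zfp819 were each lost without either 3 h library.

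The 4 members with NHL repeats, which bind RNA or protein targets, were all tested and none was called in any comparison. Over all tested genes 4.9% were called at 3 h, 29.0% at 6 h and 1.64% at 6 h against 3 h. The 4 genes are too few to tell their share from these. Trim71 was at 126.9 and 40.3 CPM in control against 131.9 and 143.3 at 3 h and 93.7 and 94.0 at 6 h. Its 2 control libraries lay further apart than all 4 treated libraries did, and the 6 h libraries were between them. The differences were 0.71 ± 0.40 at 3 h (adjusted p = 0.308) and 0.15 ± 0.40 at 6 h (0.804). Without control library 1 they were 1.77 and 1.22 and called, and without control library 2 the 6 h value turned to -0.43 and was called lower (adjusted p = 0.0452). Trim2, a neuronal ligase, was at 52.3 and 41.9 CPM in control against 74.5 and 64.9 at 3 h and 58.2 and 68.3 at 6 h, above control in all 4 treated libraries but not called (0.56 ± 0.16 and 0.42 ± 0.16, adjusted p = 0.0807 and 0.0816). Trim2 was called at both times with library size alone or without control library 1. Trim3 was at 14.4 and 12.1 CPM in control against 12.8 and 17.2 at 3 h and 9.08 and 9.28 at 6 h. Trim32, known from a muscular dystrophy, was at 19.3 and 20.4 CPM in control against 18.2 and 26.1 at 3 h and 17.7 and 17.3 at 6 h, and its 6 h difference of -0.18 turned to 0.17 with library size alone.

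Genes listed with TRIM71 and LIN28 were counted beside it. They include factors that act on mRNAs and microRNAs, and other genes such as Cdkn1a, Hmga2, Rbl1 and Nes. Of 17 tested genes none was called at 3 h and 3 rose at 6 h (17.6%, against 29.0% of all tested genes). The median difference at 6 h was 0.31, or 0.66 with library size alone. Nes, a neural intermediate filament gene, rose from 3.63 and 1.96 CPM to 8.45 and 10.7 at 6 h (1.73 ± 0.34, adjusted p = 0.00733), a call lost without 6 h library 2 (0.0646). Tnrc6c and Tnrc6b, scaffolds of microRNA silencing, differed by 0.66 ± 0.15 and 1.15 ± 0.36 (adjusted p = 0.0117 and 0.0446). The Tnrc6c call was lost without 6 h library 2, and that of Tnrc6b in 8 of 17 alternatives. Lin28a was at 323.7 and 314.8 CPM in control and 276.4 and 292.3 at 6 h, and was not called (-0.17 ± 0.12, adjusted p = 0.321).

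Members with other C-terminal domains held the clearest riser among the genes with many counts. Trim13, an E3 ligase anchored in the endoplasmic reticulum membrane, lies at chr14:61598247-61605946. Its level was 51.8 and 51.7 CPM in control against 93.8 and 89.6 at 3 h and 126.1 and 107.8 at 6 h. The 3 groups did not overlap and the level was highest at 6 h. Its difference was 0.83 ± 0.13 at 3 h (1.77-fold, adjusted p = 0.0126) and 1.18 ± 0.13 at 6 h (2.26-fold, adjusted p = 0.00075). The 6 h call held in all 17 alternatives, and the 3 h call was lost without either 3 h library (0.0945 and 0.0831). Trim59, another membrane-anchored member, was at 75.2 and 80.4 CPM in control against 85.3 and 90.0 at 3 h and 104.9 and 107.8 at 6 h. It rose by 0.45 ± 0.12 at 6 h (adjusted p = 0.0213), a call lost without control library 1 or either 6 h library.

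Trim37, a ligase of peroxisomes and centrosomes with a MATH domain, moved the other way. It was at 74.1 and 92.6 CPM in control against 59.2 and 59.5 at 3 h and 54.0 and 44.6 at 6 h, below control in all 4 treated libraries. The difference at 6 h was -0.75 ± 0.16 (adjusted p = 0.00953), and the call was lost with library size alone (-0.40, adjusted p = 0.0794) and without 6 h library 2 (0.0800). Trim23, which ends in an ARF GTPase domain, had 0 to 12 counts per library and was not tested.

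Of the 7 members without a recognised C-terminal domain 3 were tested and 1 was called lower at 6 h. Over all tested genes 29.0% were called at 6 h, and 3 genes are too few to set against that share. Trim44, which has a ubiquitin-binding zinc finger in place of the RING, was at 55.1 and 59.5 CPM in control against 34.6 and 51.1 at 3 h and 38.1 and 38.1 at 6 h. All treated libraries lay below both controls, with the 3 h pair far apart. The 6 h difference of -0.59 ± 0.19 just passed the threshold (adjusted p = 0.0445). The call was lost without either control library, without either 6 h library, with upper-quartile scaling (0.0549) and with library size alone (-0.23). Trim8, a regulator of cytokine signalling, was at 64.1 and 84.6 CPM in control against 55.9 and 63.4 at 3 h and 50.4 and 57.5 at 6 h, below control throughout but not called (-0.46 ± 0.17 at 6 h, adjusted p = 0.0695). It was called lower at 6 h with DESeq2, with the replicate block and without control library 1. Trim56, an antiviral ligase, had 0 to 18 counts per library and was not tested.

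The 6 members with a COS box, which binds microtubules, were mostly genes of muscle and neurons. Of these, 3 were tested and none was called, against 4.9% of all tested genes at 3 h and 29.0% at 6 h. The 3 genes are too few to tell their share from these. Trim63 (MuRF1), a ligase of muscle wasting, was at 4.82 and 5.50 CPM in control and 2.15 and 3.87 at 6 h (-0.78 ± 0.37, adjusted p = 0.151).

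TRIM proteins under other symbols were read too. Mid1, a microtubule-binding ligase mutated in Opitz syndrome, was at 16.4 and 22.6 CPM in control against 31.3 and 73.7 at 3 h and 57.2 and 86.9 at 6 h. Every treated library exceeded both controls, with wide spread within the treated pairs. It rose by 1.90 ± 0.39 at 6 h (adjusted p = 0.00886, and 0.0615 without 6 h library 2). At 3 h the difference was 1.44 ± 0.39 (adjusted p = 0.0698). Pml, the organiser of nuclear bodies, was at 258.4 and 291.8 CPM in control against 295.9 and 323.5 at 3 h and 304.3 and 300.5 at 6 h, and was not called. Mid2 had 9 counts in 1 library at 6 h and 0 in the others.

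Ubiquitin itself and the enzymes upstream of the ligases were read last. Of 22 tested genes none was called at 3 h, and at 6 h 1 rose and 5 fell (27.3%, against 29.0% of all tested genes), with a median difference of -0.16 that turned to 0.20 with library size alone. Rps27a, which encodes ubiquitin fused to a ribosomal protein, differed by -0.47 ± 0.09 (adjusted p = 0.00623). Ube2c and Ube2d1, E2 enzymes of the anaphase-promoting complex and of many RING ligases, differed by -0.89 ± 0.16 and -0.86 ± 0.18 (adjusted p = 0.00598 and 0.00982), and Uba1, the main E1 enzyme, by -0.59 ± 0.14 (0.017). The calls of Rps27a, Ube2d1 and Uba1 were lost with library size alone, where they stayed negative at -0.12, -0.50 and -0.24. Without 6 h library 2 those of Ube2c, Ube2d1 and Uba1 were lost, and that of Uba1 also without control library 2. Ube2h rose by 0.78 ± 0.23 (adjusted p = 0.0343) and was lost in 8 of 17 alternatives.

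**Figure D4:**
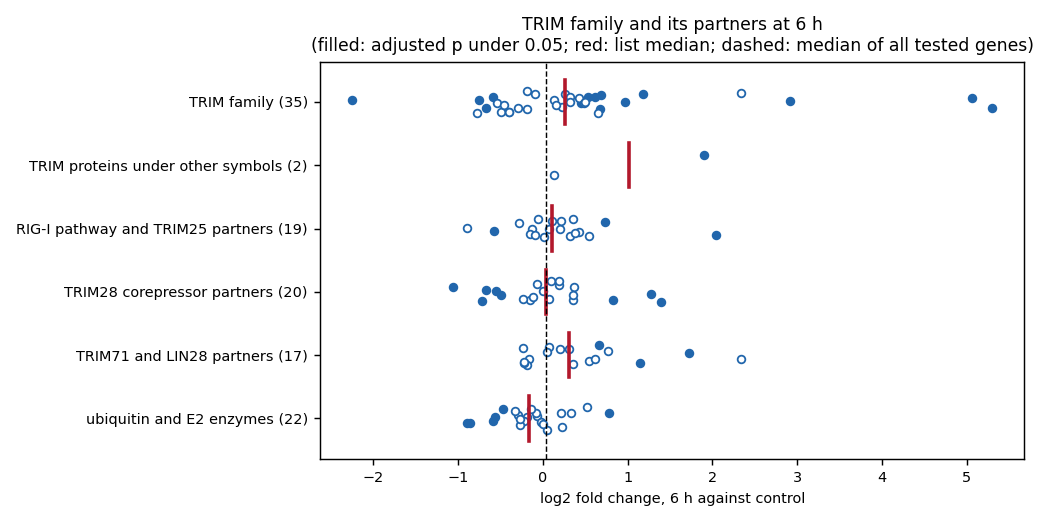
Log2 fold change at 6 h against control (horizontal axis) of every tested gene in the TRIM family and in 5 other lists, 1 point per gene, filled where the adjusted p was under 0.05, with the list median in red and the median of all tested genes dashed. The median of the ubiquitin and E2 list is -0.16 (0.20 with library size alone) and that of the TRIM family 0.26, and each list holds genes on both sides of 0 except the list of 2.

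The 16 members that were not tested had 1 to 41 counts over all 6 libraries, with at most 19 in any library, and 8 had none in either control library. A count of 0 allows up to 3 counts, or a level of up to 0.110 to 0.320 CPM of unscaled library size, depending on the library, so expression below that was not detectable. Trim36 had 2 and 0 counts in control and 9 and 16 at 6 h, a depth-scaled ratio of 4.81 with a counting interval of 1.20 to 41.9. Trim65 had 2 and 0 in control and 15 and 16 at 6 h, a ratio of 5.96 (1.52 to 51.4). For Trim23 and Trim56 the 6 h ratios were 2.43 (0.717 to 12.8) and 2.82 (0.847 to 14.7), intervals that include 1. These ratios were formed only for members with few counts in control and more after the drug, so ratios above 1 follow from that choice. Other untested members went the other way, among them Trim54, with 14 and 1 counts in control and 3 and 6 at 6 h. Trim61 had 2 and 4 in control and 0 and 5 in the deeper 6 h libraries. The intervals cover counting error only, and no test over the libraries was made.

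**Figure D5:**
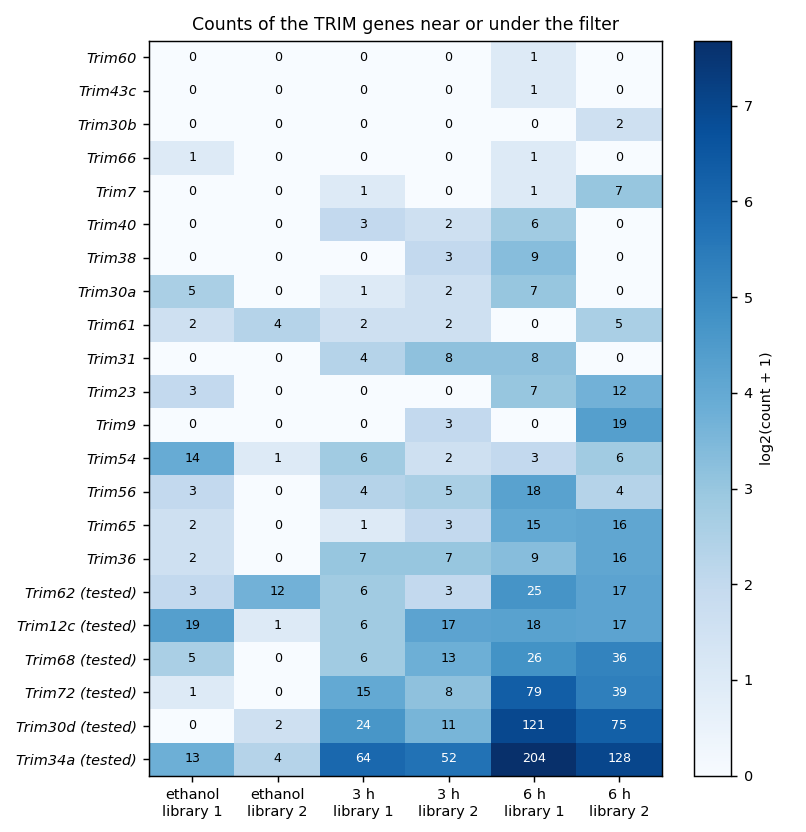
Raw counts of the 16 untested TRIM genes and the 6 tested genes that missed the filter level in control, 1 row per gene and 1 column per library, coloured by log2(count + 1). The lower rows, Trim72, Trim30d and Trim34a, go from 0 to 13 counts in the ethanol libraries to 39 to 204 in the 6 h libraries, which are also the deepest.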

How the data were processed

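The authors deposited whole-number read counts per gene for each of 6 bulk RNA-seq libraries, with 17485 genes per file and no summary rows. The build is mm10 per the submitters' processing notes. The aligner, counter, annotation, strand setting and use of molecular identifiers are not given in the sources used here. The series text calls the sequencing single-cell while its title says bulk, and each file holds 1 column.

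Counts were tested as deposited with edgeR 4.0.16 (R 4.3.3), with TMM scaling and the quasi-likelihood test, 1 mean per group fitted to the 6 libraries together, and Benjamini-Hochberg adjustment over 12755 genes with at least 2 libraries at the CPM of 10 counts in the median library and 15 counts in all. TMM factors ran from 0.872 to 1.13. Alternatives used limma 3.58.1 (voom), DESeq2 1.42.0, other scalings and filters, a test against a 1.5-fold change, a replicate block, thinned counts and the removal of each library. The scripts were checked on simulated data. Within a group the 2 libraries differed by more than sampling noise, at 18.7 to 27.7 chi-square units per degree of freedom. Annotation was GENCODE M21, which held all 51 members, and promoter windows were RefSeq's (GRCm38.p6). A further 17 symbols of the pattern in that annotation were not analysed here.

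Members, structural groups and lists were chosen with earlier results of these data known. Named were Trim25, every member called in a comparison, 18 members by name, some of them among those called, 3 TRIM genes under other symbols by name, and up to 6 called genes per list by their 6 h p. Some listed genes are counted but not reported by name here.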

Additional observations from a re-analysis of the deposited data

How the results depend on the processing

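Over the 17 alternatives, no called TRIM member changed direction, and of 254 values for the 15 calls besides Trim25, 201 stayed called and 53 did not. The TRIM members called, Trim25 included, numbered 3 at 3 h, and 8 with library size alone, 11 without a filter, 8 with DESeq2, 1 against a 1.5-fold change, and 1 to 7 with 1 library left out. At 6 h they numbered 14, with 5 against a 1.5-fold change and 6 to 15 with 1 library left out. At 6 h against 3 h they numbered 0, with 1 without a filter or with only the libraries compared, and 0 to 1 with 1 left out. That 1 gene was Trim71. All genes called at 3 h numbered 625, and 1373 with library size alone, 1816 without a filter, 1447 with DESeq2, 108 against a 1.5-fold change, 218 with only the libraries compared, and 97 to 1031 with 1 left out. At 6 h they numbered 3703, with 773 against a 1.5-fold change and 1273 to 3628 with 1 left out. At 6 h against 3 h they numbered 209, with 1063 without a filter, 508 with limma-voom, 688 with DESeq2, 25 against a 1.5-fold change, 126 with the replicate block, 563 with only the libraries compared, and 12 to 596 with 1 left out. Deviations of same-numbered libraries correlated across tested genes at 0.14 (control and 3 h), -0.03 (control and 6 h) and 0.02 (3 h and 6 h). Low-count genes were included, and the labels do not say what the number marks, so pairing cannot be told from these values. The replicate block gave 426, 3550 and 126 genes and 3, 14 and 0 TRIM members. Uncalled comparisons of the named members changed sign in 19 of 810 values, and tested members that were not named were not counted here. Trim21 at 3 h was 0.21 with library size alone, 0.25 with limma-voom and 0.03 with the block, and with 1 library left out ran from -0.68 to 0.96, from -0.53 to 1.12 at 6 h and from -0.32 to 0.63 between the times. Trim27 and Trim32 at 6 h were 0.17 with library size alone. With 1 library left out, the 3 h values ran from -0.13 to 0.37 for Trim26, -0.059 to 0.37 for Trim3 and -0.13 to 0.39 for Trim32, the 6 h value of Trim71 from -0.43 to 1.22, and the values between the times from -0.14 to 0.61 for Trim11, -0.009 to 0.17 for Trim27 and -0.42 to 0.14 for Trim44. Where a group kept 1 library, that library was taken to vary like the others; the cause of these shifts was not tested. Called genes of the other lists kept their direction in 425 values and their call in 343. Genes with few counts in control are limited by depth.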

Other observations

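Some features of the members that no comparison above used are given as values. The 51 members lie on 15 chromosomes, with 12 on chromosome 7 and 8 on chromosome 11. In the principal transcript of each gene in GENCODE M21, the 3′ untranslated region of Trim25 has 3572 bases and holds 1 copy of the letters ATTTA, the core of AU-rich elements that can shorten the life of an mRNA. The median length was 753.5 bases over the 10 members called higher at 6 h and 1661 over the 21 tested and not called. Of the 10, Trim30d, Trim34a and Trim72 were tested only through the treated libraries. The members called lower besides Trim25 had 173 (Trim28), 2349 (Trim37) and 4358 bases (Trim44). The median number of ATTTA per kilobase was 0.93 over the higher members and 0.85 over the uncalled, and 4 of the 10 and 5 of the 21 had none. The lower members besides Trim25 had 5.78 (Trim28, 1 copy), 2.13 (Trim37) and 1.84 (Trim44). These figures describe small sets and were not tested.

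Trim41 and Rack1, which encodes a scaffold protein of the ribosome, share 31 exonic bases on opposite strands, and Trim46 shares 239 with Krtcap2. Trim47 and Trim65 share 225 on the same strand.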
